A study of Mus musculus with 8 samples.

Results

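The 10 genes described here belong to the Bcl-2 family, which decides whether mitochondria release the signals that start apoptosis. They were taken by symbol from a table of 24421 mouse genes: Mcl1, Bcl2, Bcl2l1, Bcl2a1a, Bcl2a1b and Bcl2a1d, which oppose death, Bax and Bak1, which carry it out, and Bcl2l11 and Bid, which trigger it. All 10 were among the 12254 genes tested, and all 10 also passed the filter on the 4 unstimulated libraries alone. RNA was sequenced from neutrophils isolated magnetically from the bone marrow of 8-week-old female C57BL/6 mice. The animals were wild type (WT) or Padi4-/- (Padi4 KO), the latter made by deletion of exon 1 of Padi4 and not described as limited to neutrophils. Cells were left unstimulated (Nostim) or given 1 µg/ml of R848, a small-molecule agonist of the endosomal receptor TLR7, for 6 h. Each of the 4 groups (WT_Nostim, KO_Nostim, WT_R848 and KO_R848) had 2 libraries, which the labels number 1 and 2 without saying whether they came from separate mice. The paper says only that samples were analyzed in duplicate. P-values therefore measure the spread between these libraries, which may be technical. The protocol has the unstimulated cells in culture for 6 h as well, whereas their titles give 0 h. Which holds was not settled by the files, so each R848 response below may also hold what 6 h of culture does.

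The libraries held between 562446 and 1177972 counts on genes, so that a floor of 3 counts corresponded to between 2.55 and 5.33 CPM (the count of a gene scaled to a common total). Padi4 itself was counted 590 and 527 times in the WT_Nostim libraries, 40 and 54 times in the KO_Nostim libraries, 166 and 234 times in the WT_R848 libraries and 34 and 21 times in the KO_R848 libraries. It was low in each library labelled KO. Neutrophil markers were abundant, with 12 of the 13 listed genes in the table and their sum between 100452 and 155461 CPM. Of the 14 erythroid markers 12 were in the table, 7 of them with counts. Hba-a1, Hba-a2, Hbb-bs, Hbb-bt and Hbb-b1 were listed at 0 in every library. The erythroid sum lay between 22.4 and 76.4 CPM in the WT libraries and between 658 and 955 CPM in the Padi4 KO libraries.

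Proteins of this family act at the outer mitochondrial membrane. Bax and Bak1 form pores that let cytochrome c escape, the anti-death proteins hold them or their triggers in check, and the BH3-only proteins, Bcl2l11 (Bim) and Bid among them, tip the balance towards death. Neutrophils are short-lived cells that depend on Mcl1, an anti-death protein with a very short half-life, and on A1, the product of the Bcl2a1 genes, whose transcripts are induced by inflammatory signals. They are known to hold little Bcl2.

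Mouse A1 is encoded by several near-identical genes, and the likeness of their sequences limits what short reads can say about each copy. Bcl2a1a (GRCm38 chr9:88956900-88962419, plus strand), Bcl2a1b (chr9:89199209-89207827, plus strand) and Bcl2a1d (chr9:88723285-88731914, minus strand) each have 519 coding bases in the GENCODE annotation. They differ at 12 coding positions in all. The coding bases of Bcl2a1a were 97.88% identical to those of Bcl2a1b and 98.65% identical to those of Bcl2a1d, and those of Bcl2a1b and Bcl2a1d were 98.84% identical. The first 60 coding bases are shown because they hold 6 of these positions, which are in capitals:
Bcl2a1a, chr9:88957051-88957110, plus strand: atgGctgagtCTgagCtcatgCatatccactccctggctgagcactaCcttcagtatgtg
Bcl2a1b, chr9:89199360-89199419, plus strand: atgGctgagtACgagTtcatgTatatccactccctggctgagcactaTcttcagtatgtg
Bcl2a1d, chr9:88731660-88731719, minus strand: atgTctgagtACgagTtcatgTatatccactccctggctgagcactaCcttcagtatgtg
Of the 50-base windows along their transcripts, 31% of those of Bcl2a1a, 20.8% of those of Bcl2a1b and 20.5% of those of Bcl2a1d occurred in no other annotated gene. For the other 7 members this share was between 82.9% and 100%. The split of counts between the 3 copies is therefore uncertain, and they are also given as a sum. The paper does not say how reads that match several genes were counted. If such reads were left out, the sum is too low as well. Exons of Bcl2a1b also share 401 bases with Gm29094 on the same strand, and a further copy, Bcl2a1c, had 0 counts in every library.

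The regions upstream of the 3 copies were also alike. The letters TGANTCA, where N is any base, are a loose form of the AP-1 site. They were searched on both strands in windows from 250 bases before to 50 bases after each RefSeq start site (GRCm38.p6). They occurred in the window of each of the 3 Bcl2a1 genes and in none of the windows of the other 7 members. Among all 32851 windows of this length, 7.81% held these letters with any middle base. All 3 matches have A as the middle base. The match began 120 bases before the start site of Bcl2a1a, 164 bases before that of Bcl2a1b and 114 bases before that of Bcl2a1d, and is in capitals below with the 35 bases on either side:
Bcl2a1a, chr9:88956765-88956841, plus strand: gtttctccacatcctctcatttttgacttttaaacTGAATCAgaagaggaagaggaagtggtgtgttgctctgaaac
Bcl2a1b, chr9:89199074-89199150, plus strand: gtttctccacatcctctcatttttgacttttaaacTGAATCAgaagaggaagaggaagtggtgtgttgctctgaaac
Bcl2a1d, chr9:88731923-88731999, minus strand: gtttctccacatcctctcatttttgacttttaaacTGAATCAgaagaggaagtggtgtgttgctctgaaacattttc
The copies share this stretch as they share their coding sequence, so the 3 matches are not separate observations. The NF-kB consensus was found in 1 of the 3 windows of Bcl2l1 and in no window of the other members, against 8.46% of all windows. These matches are letters in a window and say nothing of binding.

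In unstimulated cells Mcl1 made up most of the transcripts of the family. On the scale that allows genes to be compared, CPM per kb of annotated exon, Mcl1 stood at 242 ± 30.4 (SD, n = 2) in WT_Nostim and 233 ± 8.63 (SD, n = 2) in KO_Nostim. That was 76.0% and 75.9% of the sum over the 10 genes. Bak1 came next in WT_Nostim at 32.0 ± 2.49 CPM per kb, ahead of Bid at 17.3 ± 1.68 CPM per kb. Bax followed at 10.4 ± 0.810 CPM per kb and Bcl2l1, which encodes Bcl-xL, at 7.60 ± 1.17 CPM per kb. The ranges of these 5 genes did not overlap in WT_Nostim. In KO_Nostim the order was the same, with Bax between 8.61 and 12.4 CPM per kb and Bcl2l1 between 6.41 and 8.70 CPM per kb, which overlap. Bcl2l11, at 1.53 CPM per kb in WT_Nostim and 2.40 in KO_Nostim, and the Bcl2a1 copies, each with a mean below 5 CPM per kb in both, stood under them. Bcl2 (chr1:106538178-106714274) was last, with 0 and 3 counts in WT_Nostim, 0 and 2 in KO_Nostim and 1 in each of the 4 R848 libraries. No library exceeded the floor of 3 counts, so no change of Bcl2 was detectable at this depth.

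After R848 the same 10 genes had another make-up. Mcl1 remained first, at 418 ± 17.3 CPM per kb in WT_R848 and 276 ± 15.0 CPM per kb in KO_R848 (SD, n = 2), but its share of the sum was 48.0% in WT and 43.7% in Padi4 KO. The 3 Bcl2a1 copies together held between 0% and 2.24% of the sum in the unstimulated libraries and between 36.2% and 39.0% in the R848 libraries. These shares use the full exon length, although only 20.5% to 31% of the windows of each copy occurred in no other gene. For Mcl1 this was 100%. Any loss of shared reads would make the Bcl2a1 shares too low and the Mcl1 share too high, which was not tested. Per kb, Mcl1 stood at between 1.09 and 1.34 times the summed copies in the R848 libraries, so its lead over that sum is uncertain. In both genotypes Bcl2a1b, Bcl2a1a and Bcl2a1d followed Mcl1, ahead of Bak1, Bax, Bid, Bcl2l11 and Bcl2l1. Bak1 and Bax overlapped in both genotypes, and in WT_R848 both overlapped Bcl2a1d. The anti-death members summed to between 78.3% and 83.0% of the family before and between 83.0% and 86.8% after R848. The plot of shares by library shows the 2 replicates of each group close together.

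**Figure D1:**
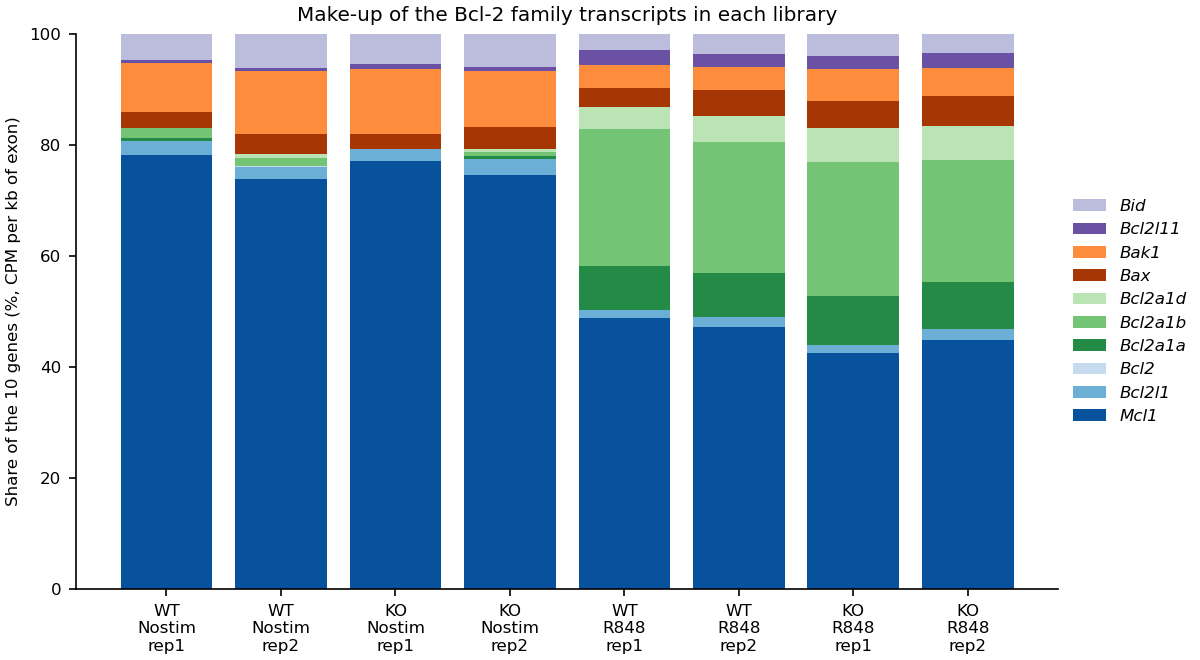
Share of each of the 10 Bcl-2 family genes (percent of their summed CPM per kb of exon) in each of the 8 libraries, stacked by gene. The dark blue part, Mcl1, covers between 73.8% and 78.2% in the 4 unstimulated libraries and between 42.5% and 48.8% in the 4 R848 libraries, where the green Bcl2a1 copies cover between 36.2% and 39.0%.

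The first comparison asked which members changed with R848 in each genotype, as the study compared cells with and without R848 separately in WT and Padi4 KO. In WT neutrophils 8 of the 10 members rose and 0 fell at a false discovery rate (FDR) below 0.1, the threshold of the study. Over all genes tested, 13.5% rose and 16% fell. With the study's further requirement of a change over 2-fold, 5 members rose, against 7.17% of all genes rising and 10.8% falling. In Padi4 KO neutrophils also 8 members rose and 0 fell, against 19.2% and 15.9% of all genes, and 5 rose over 2-fold, against 8.07% rising and 8.84% falling. The median log2 fold change of the 10 members was 1.33 for the WT response and 1.06 for the Padi4 KO response, and that of all genes tested was -0.17 and -0.031. The members that rose were Mcl1, Bcl2l1, the 3 Bcl2a1 copies, Bax, Bcl2l11 and Bid, in both genotypes, though DESeq2 called 7 of them in WT and 5 in Padi4 KO, and scaling by library total alone left 6 in WT and 5 in Padi4 KO. Both sides of the family are among them, so the list as a whole names no direction towards survival or death. Per-library values are in the plot of CPM by library. The CPM values of genes that follow were scaled between libraries by the TMM method, whereas sums of markers are CPM of the library total.

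**Figure D2:**
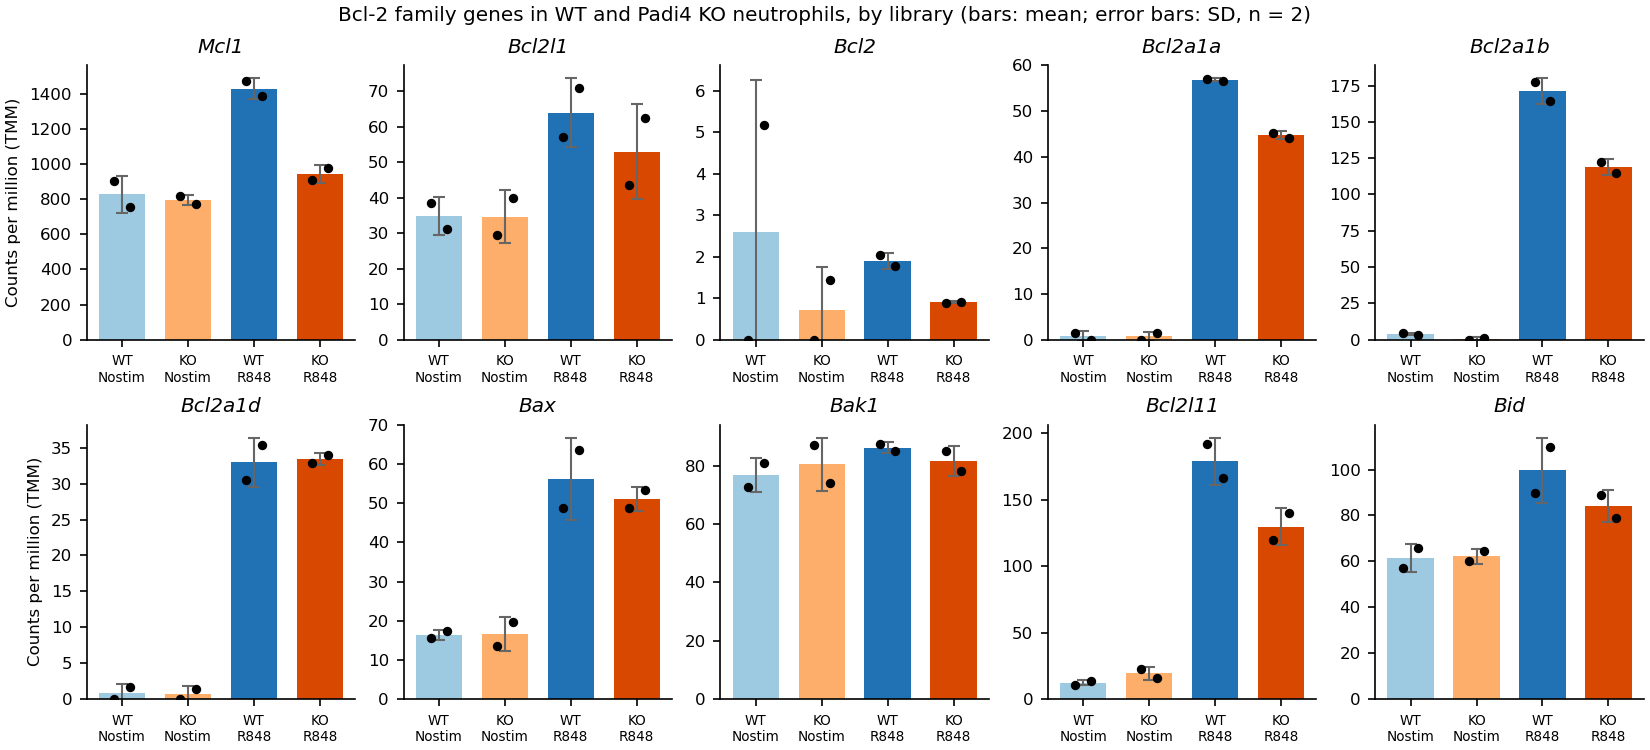
CPM (TMM-scaled) of each gene in each group, with dots for the 2 libraries, bars for their mean and error bars for the SD. Mcl1 lies between 755 and 981 CPM in the unstimulated and KO_R848 libraries and between 1388 and 1471 CPM in WT_R848, and the Bcl2a1 copies and Bcl2l11 are far higher in all 4 R848 libraries than in any unstimulated one.

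The Bcl2a1 copies showed the largest rise of the members. Summed over the 3 copies, WT_Nostim libraries had 4 and 3 counts and KO_Nostim libraries 0 and 6, whereas WT_R848 libraries had 130 and 145 and KO_R848 libraries 226 and 210. In CPM the sum went from 5.68 ± 0.710 (SD, n = 2) to 261 ± 5.82 in WT cells. In Padi4 KO cells it went from 2.18 ± 3.08 to 197 ± 5.50. The ratio of R848 to unstimulated counts, per TMM-scaled library total, was 45.6 in WT, with an exact 95% interval from 21.9 to 115. In Padi4 KO it was 74.3, with an interval from 33.8 to 203. These intervals cover counting error only. The fitted log2 fold changes were 5.48 ± 0.30 (SE) in WT and 6.14 ± 0.28 in Padi4 KO, and the log2 difference between them, 0.66 ± 0.76 (edgeR quasi-likelihood test, FDR 0.807), was smaller than its error.

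Each copy showed the rise on its own. Bcl2a1b had 3, 2, 0 and 2 counts in the unstimulated libraries, 87 and 93 in WT_R848 and 138 and 125 in KO_R848. Bcl2a1a had at most 2 counts unstimulated, 28 and 32 in WT_R848 and 51 and 48 in KO_R848. Bcl2a1d had at most 2 counts unstimulated, 15 and 20 in WT_R848 and 37 in both KO_R848 libraries. With so few unstimulated counts the size of each copy's rise is poorly known. The count ratio of Bcl2a1b was 41.8 (exact 95% interval 17.6 to 130.3) in WT and 134 (36.8 to 1116) in Padi4 KO.

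Mcl1 (chr3:95658788-95663176, plus strand) rose in WT neutrophils. Its CPM was 901 and 755 in the WT_Nostim libraries and 1471 and 1388 in the WT_R848 libraries, without overlap. The log2 fold change was 0.78 ± 0.083 (SE; edgeR, FDR 1.02e-19), a 1.72-fold rise, under the 2-fold limit of the study. In Padi4 KO neutrophils the CPM was 817 and 776 unstimulated and 908 and 981 after R848, also without overlap, and the log2 fold change was 0.25 ± 0.077 (edgeR, FDR 0.00562). This smaller rise was 0.16 with DESeq2 (FDR 0.420) and changed sign, to -0.13 (FDR 0.196), when libraries were scaled by their total alone. It also lost its call, at values between 0.067 and 0.21 (FDR 0.135 to 0.701), without KO_Nostim replicate 2 or without any 1 of the 4 R848 libraries.

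Scaling acts on all genes at once. Over the 16 fits, those with 1 library left out included, the median log2 change of genes with 10 or more counts on average lay between -0.38 and 0.042 in the WT response and between -0.30 and 0.086 in the Padi4 KO response, with the lowest value of each from scaling by library total alone. Relative to that median, Mcl1 rose by between 0.74 and 0.97 in WT and by between 0.13 and 0.22 in Padi4 KO on the log2 scale in the 16 fits. The plot of settings shows the 2 genotypes apart in each of them.

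**Figure D3:**
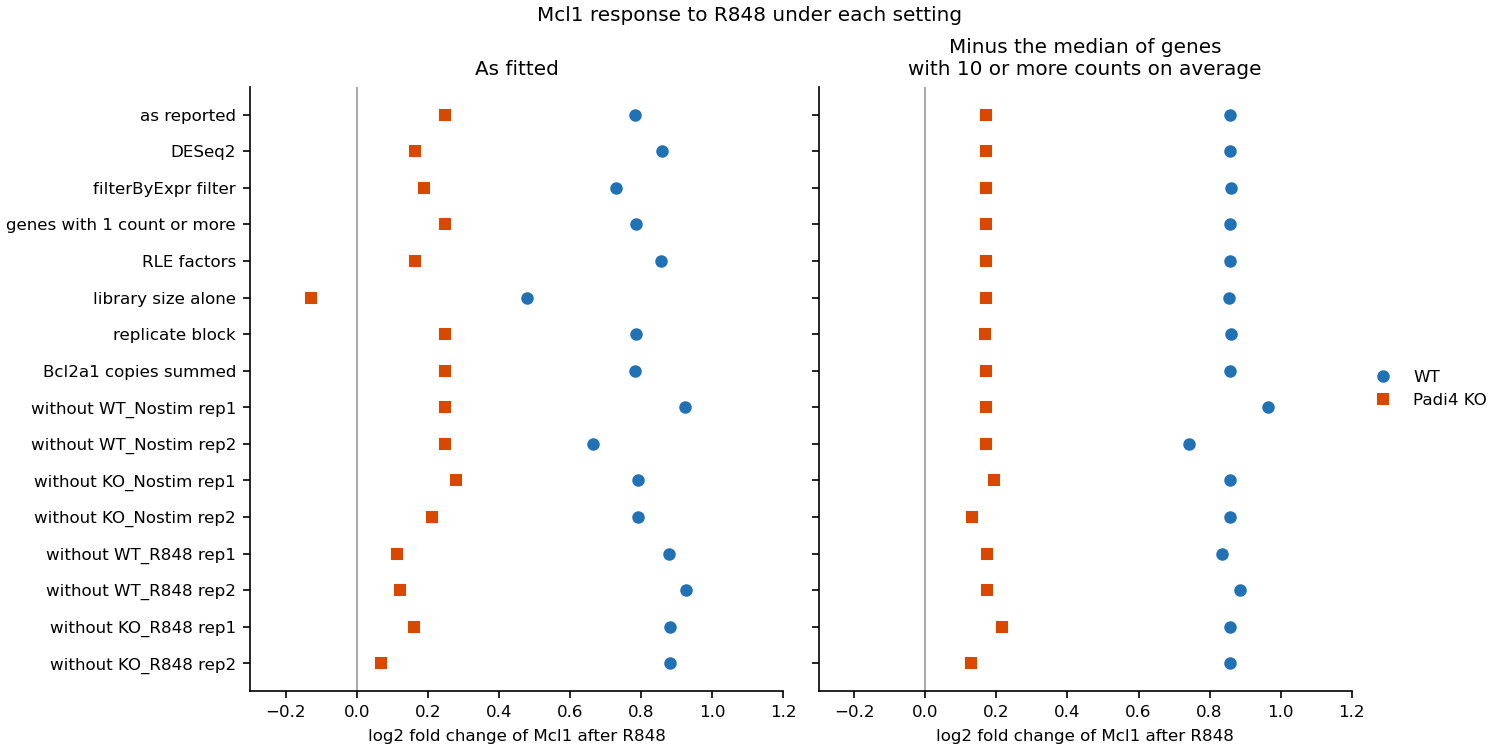
log2 fold change of Mcl1 after R848 in WT (circles) and Padi4 KO (squares) under each of the 16 fits, as fitted (left) and after subtracting the median log2 change of genes with 10 or more counts on average (right). As fitted the Padi4 KO values run from -0.13 to 0.28 and the WT values from 0.48 to 0.93, and relative to the median they run from 0.13 to 0.22 and from 0.74 to 0.97.

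Bcl2l1 (chr2:152780668-152831728, minus strand) showed a smaller and less certain rise than the Bcl2a1 copies. Its CPM was 38.7 and 31.1 in WT_Nostim and 57.1 and 70.8 in WT_R848, with a log2 fold change of 0.87 ± 0.28 (edgeR, FDR 0.0102). In Padi4 KO it was 29.4 and 39.9 unstimulated and 43.5 and 62.5 with R848. The log2 fold change there was 0.56 ± 0.21 (FDR 0.0303). Bcl2l1 had 18 to 68 counts in a library. Neither rise was called by DESeq2, at values of 0.95 in WT (FDR 0.120) and 0.51 in Padi4 KO (FDR 0.520). Nor was either called with libraries scaled by their total alone (FDR 0.119 and 0.528). The WT call was also lost without WT_Nostim replicate 2 (FDR 0.108) or WT_R848 replicate 2 (FDR 0.105), and the Padi4 KO call without KO_Nostim replicate 1 (FDR 0.239), either WT_R848 replicate (FDR 0.109 and 0.1002) or KO_R848 replicate 2 (FDR 0.742).

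The effectors Bax and Bak1 went apart. Bax (chr7:45461697-45466898, minus strand) had 15.5 and 17.3 CPM in WT_Nostim and 48.9 and 63.7 CPM in WT_R848. In Padi4 KO it had 13.6 and 19.6 CPM unstimulated and 48.9 and 53.3 CPM after R848. No R848 library overlapped an unstimulated one, and the log2 fold changes were 1.79 ± 0.35 in WT (edgeR, FDR 3.26e-06) and 1.56 ± 0.26 in Padi4 KO (FDR 1.43e-08). Bak1 (chr17:27019810-27029009, minus strand) lay between 72.7 and 87.6 CPM in all 8 libraries. It had 72.7 and 81.1 CPM in WT_Nostim and 87.6 and 85.0 CPM in WT_R848, without overlap, while the 2 Padi4 KO groups overlapped. Its log2 fold change was 0.17 ± 0.22 in WT (FDR 0.630) and 0.044 ± 0.16 in Padi4 KO (FDR 0.882), and the sign of both turned when libraries were scaled by their total alone. Relative to the median of genes with 10 or more counts on average, the WT value lay between 0.13 and 0.32 and the Padi4 KO value between -0.17 and 0.054 in the 16 fits. With 1 library left out the Padi4 KO value lay between -0.17 and 0.14. Scaled by the library total alone it was -0.33 and passed the threshold narrowly (FDR 0.0998).

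The ratio of Bax to Bak1 within a library does not depend on the scaling between libraries. In CPM per kb it was 0.325 in both WT_Nostim libraries and 0.238 and 0.404 in the KO_Nostim libraries. After R848 it was 0.853 and 1.15 in WT and 0.875 and 1.04 in Padi4 KO, above every unstimulated value. Exons of Bax share 192 bases with Gm45808 on the same strand, and those of Bak1 share 614 bases with Ggnbp1 on the opposite strand.

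Among the triggers, Bcl2l11 (chr2:128126038-128162547, plus strand) rose most. It had 7 and 8 counts in WT_Nostim, 20 and 22 in KO_Nostim, 94 in both WT_R848 libraries and 135 and 152 in KO_R848. In CPM these were 10.8 and 13.8 in WT_Nostim and 192 and 166 in WT_R848, against 22.6 and 16.0 in KO_Nostim and 119.9 and 139.7 in KO_R848. The log2 fold change was 3.85 ± 0.28 in WT (edgeR, FDR 4.47e-41) and 2.79 ± 0.20 in Padi4 KO (FDR 7.07e-41). Relative to Bcl2l11, Mcl1 transcripts were 128 to 196 times as abundant per kb in WT_Nostim and 84.9 to 114 times in KO_Nostim. After R848 this ratio was 18.0 and 19.6 in WT and 17.8 and 16.5 in Padi4 KO.

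Bid (chr6:120891930-120916853, minus strand), which links death receptors to the mitochondrion, rose less. It had 57.2 and 65.6 CPM in WT_Nostim and 89.7 and 109.8 CPM in WT_R848, with a log2 fold change of 0.71 ± 0.22 (edgeR, FDR 0.00774). In Padi4 KO it had 59.9 and 64.6 CPM unstimulated and 88.8 and 79.0 CPM with R848. The log2 fold change there was 0.42 ± 0.17 (FDR 0.0451). This call was lost with DESeq2 (FDR 0.598), with relative log expression (RLE) factors (FDR 0.125), with the library total alone (FDR 0.880) and without any 1 of the KO_Nostim or R848 libraries (FDR 0.119 to 0.582). The WT call was lost with the library total alone (FDR 0.169) and without WT_Nostim replicate 1 (FDR 0.106). Its exons share 628 bases with those of Bcl2l13 on the opposite strand, and the strand setting of the counting is not given in the sources used here.

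**Figure D4:**
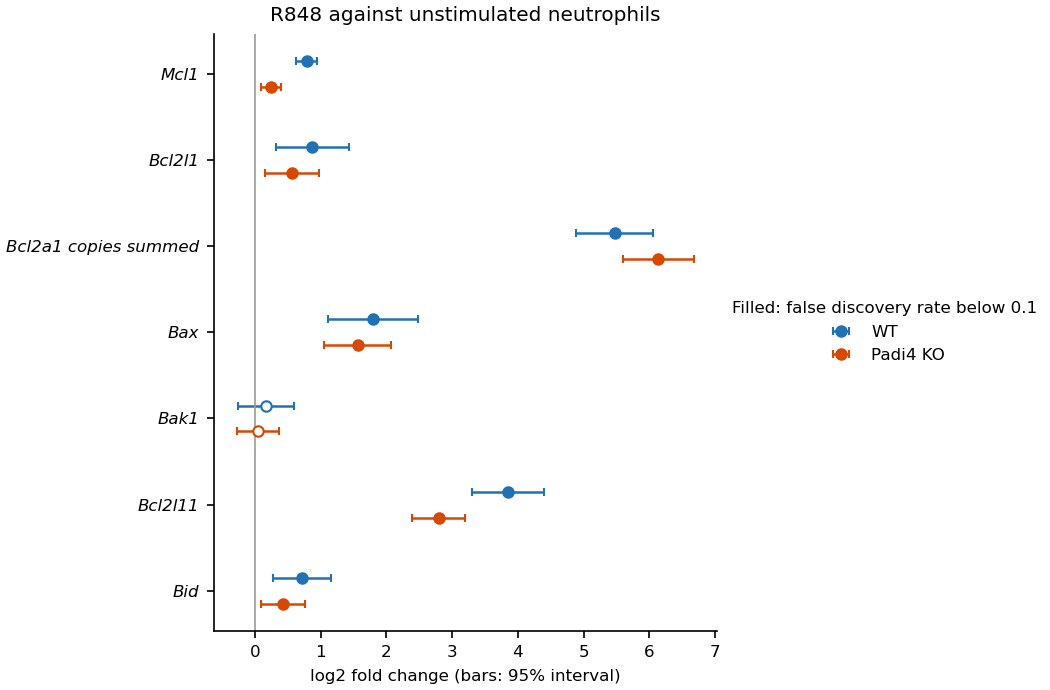
log2 fold change of each gene after R848 in WT (blue) and Padi4 KO (orange), with 95% intervals; the 3 Bcl2a1 copies are shown as their sum, and Bcl2, at or under 3 counts in every library, is left out. The values run from 0.044 for Bak1 in Padi4 KO to 6.14 for the Bcl2a1 sum in Padi4 KO, and only the Bak1 symbols are open (FDR not below 0.1).

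The next comparison set Padi4 KO against WT neutrophils without stimulation. Of the 10 members 0 rose and 0 fell by edgeR, against 9.55% and 14.4% of all genes tested. At an unadjusted p below 0.05 the count was also 0, and DESeq2 called 0. The median log2 fold change of the members was 0.042. The value of Mcl1 was -0.062 ± 0.082 (FDR 0.677), with a 95% interval from -0.22 to 0.099. It became 0.23 (FDR 0.0444) with libraries scaled by their total alone, a scaling that moved the median of genes with 10 or more counts on average from -0.16 to 0.12. Bcl2l11 had a value of 0.60 ± 0.42 (FDR 0.367). The summed Bcl2a1 copies had a value of -1.07 with a wide interval, from -2.58 to 0.45. Bcl2l1, which red cell precursors also use, had a value of 0.028 ± 0.28. The erythroid marker sum was 66.7 CPM in WT_Nostim and 676 CPM in KO_Nostim, and its part in the value of Bcl2l1 was not tested.

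After R848, 0 members were higher in Padi4 KO than in WT and 3 were lower, against 9.46% and 7.81% of all genes tested. The 3 were Mcl1, Bcl2a1b and Bcl2l11, and the median of the 10 members was -0.31, against 0.083 for all genes. Mcl1 had 1471 and 1388 CPM in WT_R848 and 908 and 981 CPM in KO_R848, a log2 fold change of -0.60 ± 0.078 (edgeR, FDR 1.31e-12). Under the 16 fits it lay between -0.75 and -0.38, and its FDR was at most 3.39e-05. The median of genes with 10 or more counts on average moved between -0.14 and 0.21 in these fits, and relative to it Mcl1 lay between -0.65 and -0.54. Bcl2a1b had 177 and 165 CPM in WT_R848 and 123 and 115 CPM in KO_R848 (log2 fold change -0.52 ± 0.15, FDR 0.00694). Bcl2l11 had a log2 fold change of -0.46 ± 0.15 (FDR 0.0194). The groups of these 3 genes did not overlap.

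The other copies of Bcl2a1 gave different values in this comparison. Bcl2a1a had 57.1 and 56.7 CPM in WT_R848 and 45.3 and 44.1 CPM in KO_R848, without overlap, but its log2 fold change of -0.35 ± 0.25 did not pass the test (FDR 0.452). Bcl2a1d had 30.6 and 35.4 CPM in WT_R848 and 32.9 and 34.0 CPM in KO_R848, with a log2 fold change of 0.012 ± 0.31. The sum of the 3 copies was lower in Padi4 KO by the fit, at -0.40 ± 0.13 (edgeR, FDR 0.0150). With DESeq2 the calls of Bcl2a1b (-0.62, FDR 0.221) and Bcl2l11 (-0.56, FDR 0.276) were lost at larger fold changes. They were also lost when libraries were scaled by their total alone (-0.31, FDR 0.176, and -0.24, FDR 0.310), which moved the median of genes with 10 or more counts on average to 0.21. Relative to this median in each fit, Bcl2a1b lay between -0.59 and -0.47 and Bcl2l11 between -0.57 and -0.35. The remaining members, Bcl2l1, Bax, Bak1 and Bid, had log2 fold changes between -0.28 and -0.077, none past the threshold.

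**Figure D5:**
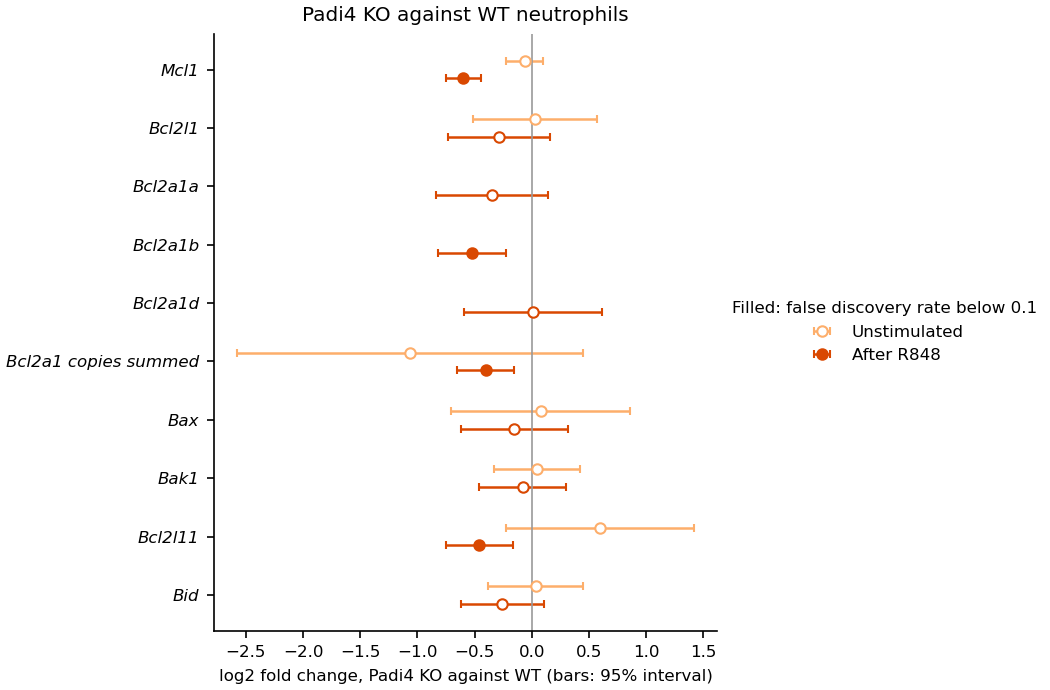
log2 fold change of each gene in Padi4 KO against WT neutrophils, unstimulated (light) and after R848 (dark), with 95% intervals and filled symbols for FDR below 0.1; single Bcl2a1 copies are shown only after R848, and Bcl2 is left out. The 4 filled symbols, Mcl1 at -0.60, Bcl2a1b at -0.52, the Bcl2a1 sum at -0.40 and Bcl2l11 at -0.46, are all from R848-treated cells.

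Whether the responses differed between genotypes was tested with the interaction term. For the members 0 were higher and 1 lower, against 3.45% and 1.26% of all genes. The 1 was Mcl1, whose log2 response was smaller in Padi4 KO by 0.54 ± 0.11 (value -0.54, edgeR, FDR 0.000306), in a table where the median of all genes was 0.19. It passed the threshold in each of the 16 fits, with an FDR of at most 0.0504 and values between -0.81 and -0.42, or between -0.83 and -0.60 relative to the median. For Bcl2l11 the difference was -1.06 ± 0.44, with an unadjusted p of 0.0167 and an FDR of 0.209, so it was not called. It did pass without WT_R848 replicate 2 or KO_R848 replicate 2, and over the 16 fits it lay between -1.39 and -0.85. For Bax, Bcl2l1, Bid and Bak1 the differences lay between -0.31 and -0.12, with SEs of 0.27 to 0.46, and none passed the threshold (FDR 0.749 to 0.943). The 95% interval for Bax ran from -1.14 to 0.68.

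Markers of other cells, summed as CPM of the library total, differed between the genotypes beside these results. After R848 the neutrophil sum was 132241 CPM in WT and 100825 CPM in Padi4 KO, and the erythroid sum was 34.2 and 946 CPM. The sums of monocyte or macrophage markers were 3371 and 3494 CPM, of megakaryocyte or platelet markers 71.9 and 91.8 CPM, and of stromal or endothelial markers 20.4 and 29.0 CPM. The sums of B cell markers were 7.69 and 12.2 CPM, of T or NK cell markers 11.7 and 6.97 CPM, and of eosinophil, basophil or mast cell markers 25.5 and 18.1 CPM. In these bulk samples fewer cells of a type and less RNA per cell cannot be told apart, and the part of these differences in the values of Mcl1, Bcl2a1b and Bcl2l11 was not tested. Before R848 the neutrophil sum was 152359 CPM in WT and 122387 CPM in Padi4 KO, the erythroid sum 66.7 and 676 CPM, and the monocyte or macrophage sum 1483 and 2025 CPM. The stromal or endothelial sum was then 201 and 580 CPM, and the megakaryocyte or platelet sum 246 and 343 CPM. With R848 the monocyte or macrophage sum on this scale was thus higher in both genotypes. The neutrophil, stromal or endothelial and megakaryocyte or platelet sums were lower. The TMM factors lay between 1.01 and 1.25 in the unstimulated libraries and between 0.804 and 0.960 in the R848 libraries. With these factors applied, the neutrophil sum would not be lower with R848. The part of these sums in the R848 responses and in the unstimulated comparison was not tested either.

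Of the 16 other Bcl-2 family genes listed, 10 were tested. In WT 4 rose and 2 fell with R848, against 13.5% and 16% of all genes, and in Padi4 KO 5 rose and 1 fell, against 19.2% and 15.9%. The largest rise was that of Pmaip1, which encodes Noxa, a BH3-only protein that binds Mcl1. It had 5 and 0 counts in the WT_Nostim libraries. Its CPM was 7.73 and 0 in WT_Nostim, 4.52 and 3.63 in KO_Nostim, 89.7 and 86.8 in WT_R848 and 50.6 and 57.0 in KO_R848. The log2 fold change was 4.38 ± 0.43 for WT and 3.71 ± 0.36 for Padi4 KO, and with R848 the Padi4 KO level was below the WT level (-0.71 ± 0.21, edgeR, FDR 0.00810), a call that DESeq2 did not make (FDR 0.290). In that comparison 1 of the 10 was lower, Pmaip1, and 1 higher, Bcl2l12, with 0 and 0 counts in WT_R848 and 6 and 5 counts in KO_R848, against 7.81% and 9.46% of all genes. The WT response was 3.49 without WT_Nostim replicate 2, and 9.27 without WT_Nostim replicate 1, where the only unstimulated WT library left had 0 counts, so that value depends on the prior count and is no bound. Bmf, another BH3-only gene, rose by 1.96 ± 0.38 in WT and 1.64 ± 0.24 in Padi4 KO on the log2 scale. Bnip3l, known for the removal of mitochondria, fell by 0.93 in WT (log2 fold change -0.93 ± 0.16) and by 0.35 in Padi4 KO (-0.35 ± 0.12), where the call was lost with DESeq2 (FDR 0.193) and without KO_Nostim replicate 2 (FDR 0.444) or KO_R848 replicate 2 (FDR 0.169).

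Of the 10 listed genes that act at and after the mitochondrion, all tested, 2 rose and 4 fell in WT, where 13.5% and 16% of all genes did. In Padi4 KO 1 rose and 2 fell, near the 19.2% and 15.9% of all genes. Apaf1, the scaffold of the apoptosome, fell in both, with log2 fold changes of -0.77 ± 0.17 and -0.52 ± 0.14. Xiap, an inhibitor of caspases, rose in WT (0.72 ± 0.18). Its value in Padi4 KO was 0.37 ± 0.15 (FDR 0.0520), which became -0.0047 with libraries scaled by their total alone and lost its call with DESeq2 (FDR 0.611), with RLE factors (FDR 0.151) and without any 1 of the KO_Nostim or R848 libraries (FDR 0.111 to 0.510). In Padi4 KO against WT after R848, 2 of the 10 were higher and 2 lower, against 9.46% and 7.81% of all genes. Xiap was lower, at 189.5 and 149 CPM in WT_R848 and 107 and 103 CPM in KO_R848 (log2 fold change -0.68 ± 0.16, edgeR, FDR 0.000305). Cycs, which encodes cytochrome c, was also lower (-0.58 ± 0.24, FDR 0.0850). Htra2, which encodes a mitochondrial protease, was higher (1.38 ± 0.45, FDR 0.0217), as was Aifm1, which encodes apoptosis-inducing factor (1.24 ± 0.49, FDR 0.0753). With DESeq2 the calls of Cycs (FDR 0.408), Htra2 (FDR 0.340) and Aifm1 (FDR 0.545) were lost, and each was also lost without WT_R848 replicate 1, WT_R848 replicate 2 or KO_R848 replicate 2 (FDR 0.113 to 0.496). The Cycs call was lost with the library total alone as well (FDR 0.339), and the Aifm1 call with RLE factors (FDR 0.108) and without KO_R848 replicate 1 (FDR 0.181).

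Among 15 regulators and partners of the family, all tested, 2 rose and 2 fell in WT and 3 rose and 3 fell in Padi4 KO. These shares are near those of all genes, 13.5% and 16% in WT and 19.2% and 15.9% in Padi4 KO. Usp9x, a deubiquitinase known to stabilize Mcl1, rose in both genotypes (log2 fold change 0.76 ± 0.22 in WT and 0.54 ± 0.18 in Padi4 KO). The WT call was lost without WT_R848 replicate 1 (FDR 0.116) and with the library total alone (FDR 0.119). The Padi4 KO call was lost with DESeq2 (FDR 0.482), with the library total alone (FDR 0.524) and without KO_Nostim replicate 2 (FDR 0.226) or KO_R848 replicate 2 (FDR 0.636). Tmbim6, which encodes Bax inhibitor-1, rose by 0.44 ± 0.085 in WT and 0.64 ± 0.078 in Padi4 KO, though with the library total alone the WT value was 0.14 (FDR 0.238). Vdac1, a channel of the outer mitochondrial membrane, fell in both (-0.98 ± 0.25 and -0.62 ± 0.16). Between genotypes after R848, 2 of the 15 were higher in Padi4 KO and 0 lower, against 9.46% and 7.81% of all genes. These were Btrc (2.14 ± 0.63, edgeR, FDR 0.00795) and Vdac1 (0.65 ± 0.24, FDR 0.0549), neither called by DESeq2 (FDR 0.228 and 0.533). Btrc had 3 and 1 counts in WT_R848 and 19 in both KO_R848 libraries. Its R848 response was -2.20 ± 0.68 in WT and -0.15 ± 0.33 in Padi4 KO. For the difference of responses 0 of the 15 were called in either direction, against 3.45% and 1.26% of all genes.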

How the data were processed

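Raw counts per gene symbol were deposited by the authors for 8 libraries in 1 table, without normalization. Per the labels and the methods, paired-end MiSeq reads were checked with FastQC 0.11.7, trimmed with cutadapt 1.16, filtered on quality, mapped to mm10 with STAR 2.5.3a and counted with HTSeq 0.6.1p1. The summary lines of HTSeq were left out, and between 87.0% and 89.5% of the reads in a library lay on genes. Exact intervals of count ratios and floors cover counting error only.

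Genes with at least 1 count in at least 2 libraries, the filter of the study, were tested in R 4.3.3 with edgeR 4.0.16 (robust quasi-likelihood fit, TMM factors, 1 mean per group) and limma 3.58.1. Benjamini-Hochberg adjustment covered all 12254 genes, and calls were made at a false discovery rate below 0.1. SE was taken as the size of the log2 fold change over the root of F, and 95% intervals are the value ± 1.96 SE. With 2 libraries per group an exact permutation test cannot pass the usual thresholds, so the p-values depend on a spread estimated over genes. The study used the Wald test of DESeq2; DESeq2 1.42.0 was run as an alternative, beside other filters and factors, summed Bcl2a1 copies, a replicate block, a stricter threshold of 0.05 and leaving out each library. The model was run on simulated data with 200 genes changed in the WT response and 1 common spread for all genes. Such data do not test how the choice of scaling affects the results. Chi-square over degrees of freedom between the 2 libraries of a group is about 1 under sampling noise alone. It was 1.05 in KO_Nostim, 1.13 in WT_Nostim, 1.16 in KO_R848 and 1.67 in WT_R848. The common coefficient of variation of the edgeR fit was 4.68%. No library was taken as a copy of another, but these values cannot tell separate mice from technical duplicates.

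The members and lists were chosen with earlier results of these data known. All 10 members are named. From 3 further lists, genes called in any of the 5 contrasts with 10 or more counts on average were eligible, up to 5 per list and contrast by smallest p. Marker sums are CPM of the library total. Gene positions and exon lengths are those of GENCODE on GRCm38, and promoter windows those of RefSeq. A few eligible genes are left out here.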

Additional observations from a re-analysis of the deposited data

Results flagged for a closer look

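The response of 3 named genes to R848 differed between WT and Padi4 KO neutrophils by the interaction term of the model. Mcl1 differed by -0.54 (SE 0.11, FDR 0.000306), with a log2 response of 0.78 in WT and 0.25 in Padi4 KO. This call was kept under all 16 alternatives.

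Cycs, which encodes cytochrome c, differed by -1.34 (SE 0.35, FDR 0.00924). Its CPM was 27.8 and 34.5 in WT_Nostim, 67.3 and 62.0 in WT_R848, 49.7 and 54.4 in KO_Nostim and 50.6 and 34.9 in KO_R848. The call was lost with DESeq2, at a value of -1.495 (FDR 0.478), and without WT_Nostim replicate 1, at a value of -1.19.

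Bnip3l differed by 0.58 (SE 0.20, FDR 0.0849), and that call was lost under 11 of 16 alternatives, among them each of the 8 that leave out 1 library except the one without KO_Nostim replicate 2.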

How the results depend on the processing

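Of 10 counts of called members under 16 alternatives, 149 values stayed within 1.5 times the reported count and 11 moved. The count of members rising in Padi4 KO was 5 instead of 8 with DESeq2 and with libraries scaled by their total alone. It was between 5 and 8 when 1 library was left out, with 5 without WT_R848 replicate 1, WT_R848 replicate 2 or KO_R848 replicate 2, Mcl1, Bcl2l1 and Bid being lost each time. Scaled by total alone, 1 member fell in Padi4 KO (Bak1, -0.33) and 1 was higher in unstimulated Padi4 KO than in WT (Mcl1, 0.23). The count lower in Padi4 KO after R848 was 1 instead of 3 with DESeq2 and with the library total alone. The count of members with a smaller response in Padi4 KO was between 1 and 2 with 1 library left out, the second being Bcl2l11 without WT_R848 replicate 2 or KO_R848 replicate 2. The causes were not tested, except that fewer samples enter each of these last fits.

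Some values changed sign. For Bak1 in Padi4 KO the log2 response was -0.054 with DESeq2, -0.015 with edgeR's filterByExpr filter, -0.039 with RLE factors and -0.33 with the library total alone, which also gave -0.14 in WT. With 1 library left out it lay between -0.17 and 0.14. For Mcl1 the library total alone gave -0.13 for the Padi4 KO response and 0.23 for unstimulated Padi4 KO against WT, and the latter lay between -0.18 and 0.084 with 1 library left out. The Xiap response in Padi4 KO was -0.0047 with the library total alone. Members' values that were not called also crossed 0 over the fits, such as unstimulated Padi4 KO against WT for Bcl2l1 (-0.24 to 0.31) and Bid (-0.066 to 0.32), Bax in Padi4 KO against WT after R848 (-0.46 to 0.059) and the difference of the Bax response (-0.67 to 0.10).

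The replicate block, with the replicate number as a term, gave -0.54 for the difference of the Mcl1 response and changed no count of called members. Deviations of libraries that share a number correlated between -0.019 and 0.021 over 6912 genes, so the numbers were not taken as pairs. Over the whole table DESeq2 called 16 genes higher and 63 lower in the difference of responses, against 423 and 154 by edgeR, and RLE factors called 160 and 233. Depth limits Bcl2 and the unstimulated values of the Bcl2a1 copies, Bcl2l11 and Bax.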
